A study of Mus musculus with 97 samples.

Results

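The 80 entries described here are the mouse genes whose symbols name a protein of the cytosolic ribosome: Rpl or Rps followed by a number and at most one of the letters a, l, x or y, or the stalk names Rplp0, Rplp1 and Rplp2. They were taken by symbol from a table of 37620 genes, and they comprise 49 genes of the large subunit (Rpl) and 31 of the small subunit (Rps). No measured value entered that rule. Rpsa is spelled in a way the rule did not catch, and it is given below as a related gene outside the 80, like Fau, Gnb2l1, Rpl22l1 and Rpl36al. RNA was measured in 18 of the 97 libraries of the study, all from a GFP Sox2-AID line of mouse embryonic stem (ES) cells grown in serum with LIF on gelatine. AID is a degron: cells destroy a protein that carries it once auxin is given. The study asked what loss of Sox2 does to RNA at successive stages of the cell cycle. Cells were sorted by Hoechst and GFP into early G1, late G1 and G2, and each phase was taken without auxin or after 0.5 mM auxin for 3 h, with 20 µM Hoechst in the last 20 min, which gives 6 groups of 3 libraries (n = 3 in every group below). The untreated groups therefore carry the degron as well. All libraries come from this line, and the labels state neither whether it is 1 clone nor whether replicate libraries came from separate cultures, so p-values measure the spread between these libraries.

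A cytosolic ribosome pairs a small subunit, which reads the messenger RNA, with a large subunit, which joins amino acids, and each core protein is present in a single copy per subunit, except the paired stalk proteins. Ribosomal protein messenger RNAs are among the most abundant of a growing cell. In mammals they begin with a cytosine followed by a run of pyrimidines (the TOP tract), through which mTORC1 signalling controls their translation and stability. Several ribosomal proteins have duplicated copies known from testis or muscle.

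The sequences below show the start of the transcript for members that recur in the results, from RefSeq on the GRCm38.p6 build (the submitters' processing notes name mm9 for the deposited files), 15 bases before to 15 bases from the annotated start, with the pyrimidine run that begins with C within 10 bases of the start in capitals where there is one. Rps27 and Rps28 are among the 5 members with the highest level, Rpl34, Rpl10l and Rpl39l among the 5 with the lowest, Rps15 and Rpl10a are among the members with the smallest p in a comparison, and Rps6, Rps10 and Rpl38 were chosen to show the tract.
Rps6: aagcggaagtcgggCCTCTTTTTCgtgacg
Rps10: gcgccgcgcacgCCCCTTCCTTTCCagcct
Rpl38: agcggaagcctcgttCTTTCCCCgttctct
Rps27: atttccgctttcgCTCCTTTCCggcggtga
Rps28: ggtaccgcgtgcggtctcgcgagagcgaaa
Rpl10a: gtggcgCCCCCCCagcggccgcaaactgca
Rps15: cccggcagagctcgcgataactgcgcaagc
Rpl34: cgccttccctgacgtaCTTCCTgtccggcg
Rpl39l: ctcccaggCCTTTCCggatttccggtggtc
Rpl10l: tttggCCTCCattttgcggctggcggtggg
They lie at chr4:86857353-86857382 (Rps6, minus strand), chr17:27635230-27635259 (Rps10, minus), chr11:114668565-114668594 (Rpl38, plus), chr3:90213634-90213663 (Rps27, minus), chr17:33824548-33824577 (Rps28, minus), chr17:28328456-28328485 (Rpl10a, plus), chr10:80292416-80292445 (Rps15, plus), chr3:130730384-130730413 (Rpl34, minus), chr16:10170213-10170242 (Rpl39l, plus) and chr12:66284387-66284416 (Rpl10l, minus). Rpl10a and Rpl34 each have a further annotated start, which is not shown. That of Rpl10a has no such run. That of Rpl34 has a pyrimidine run across the start, but its first C lies more than 10 bases before the start, so it was not counted. For both genes the start with a counted run is the one printed.

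The run is a common feature of these starts, though not one that every annotated start shows. Windows of 250 bases before to 50 after the start were found for 59 of the 80 members, 10 of them with more than 1 window. A run was counted where its first C lay within 10 bases of the start and at least 4 more pyrimidines followed. Such a run was present in 37 of the 59 members (62.7%) and in 32.6% of 27025 mouse genes. Runs that cross the start but have their first C further upstream, as in Rpl7a, were not counted, so these shares leave out some long tracts. Leaving out runs that end in CTTCCGG, the reverse complement of the ETS core CCGGAAG with which such a run can overlap, gave 62.7% and 31.8%. A C exactly at the annotated start base with at least 4 more pyrimidines after it, whatever came before, was present in 13 of 59 (22.0%) against 3.0%. In the 300-base windows, searched on both strands, the ETS family core CCGGAAG was found in 40.7% of members and 9.9% of all genes, the GC box GGGCGG in 59.3% and 38.2%, and the Yy1 core AAGATGG in 15.3% and 7.3%. The Myc E-box CACGTG was found in 10.2% and 8.1%, TATAAA in 10.2% and 15.7%, the Sox core CATTGT in 10.2% and 14.3%, and the Oct core TTTGCAT in 3.4% and 5.2%. These are letter matches in the reference and describe no binding.

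Total counts ran from 24841963 to 37587322 per library, and replicates differed far beyond counting error, with a chi-square per degree of freedom of 16.1 to 60.9 for genes with at least 20 counts. All 10 ES cell markers were above 1 CPM (a count scaled to the library's total by edgeR's TMM method) on average, with Sox2 itself at 277 to 413 CPM and Pou5f1 at 682 to 1092 CPM. Of 12 fibroblast markers 8 were under 1 CPM in every library, and Fn1 made up nearly all of their sum, at 249 to 812 CPM, against 4.18 to 8.11 CPM for the other 11. Haematopoietic markers summed to 0.355 to 2.63 CPM. Of 9 primitive endoderm entries 6 averaged at least 1 CPM, and their sum of 45.8 to 126 CPM was mostly Lama1, at 32.1 to 107 CPM. Gata4, Foxa2 and the second entry named Dab2, which had no count, averaged under 1 CPM, and Gata6 and Sox17 averaged 1.57 and 1.09 CPM. In each of the 6 groups library 3 had the lowest sum. Of 4 neural progenitor markers Nes alone averaged at least 1 CPM, at 15.8 to 34.0 CPM, and the sum of the 4 was 16.3 to 26.0 CPM in untreated and 22.5 to 34.5 CPM in auxin libraries. The part of these lists in the results below was not tested. The untreated libraries numbered 3 had the highest Fn1 of their groups (812, 712 and 603 CPM in early G1, late G1 and G2). The single entry AC157822.1 took 50.5% to 62.4% of all TPM (a level per transcript length, scaled to a fixed sum in each library) and 15.8% to 21.2% of all counts. RNase_MRP held a further 12.3% to 19.8% and 7SK 7.51% to 9.39% of all TPM. Since TPM has a fixed sum, the share left for all other genes varies with these entries, not with AC157822.1 alone. In untreated early G1 library 3 AC157822.1 was at its lowest (50.5%) and RNase_MRP at its highest (19.8%). Ribosomal protein genes had their highest share of TPM, 2.83%, in untreated G2 library 1, where AC157822.1 was also highest (62.4%).

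Ribosomal protein genes held 5.20% to 6.45% of all counts and 2.15% to 2.83% of all TPM in a library. Of the 80 members, 71 had a mean level of 100 to 1000 TPM, and 9 had less than 100. The median member was at 249 TPM, with 222 TPM for the large and 282 TPM for the small subunit. The large subunit genes made up 52.0% to 53.6% of the family's TPM in every library. The 3 highest were Rplp1, a stalk protein that helps recruit elongation factors (859 TPM, range 765 to 1036), Rps14 (842 TPM, 764 to 965) and Rps28 (781 TPM, 667 to 925). Their ranges overlap, and so did those of 75 of the 79 neighbouring pairs in the order of levels. Between Rplp1 and the lowest member above 100 TPM the ratio was 7.84. The 10 highest members together held 28.9% of the family's TPM.

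**Figure D1:**
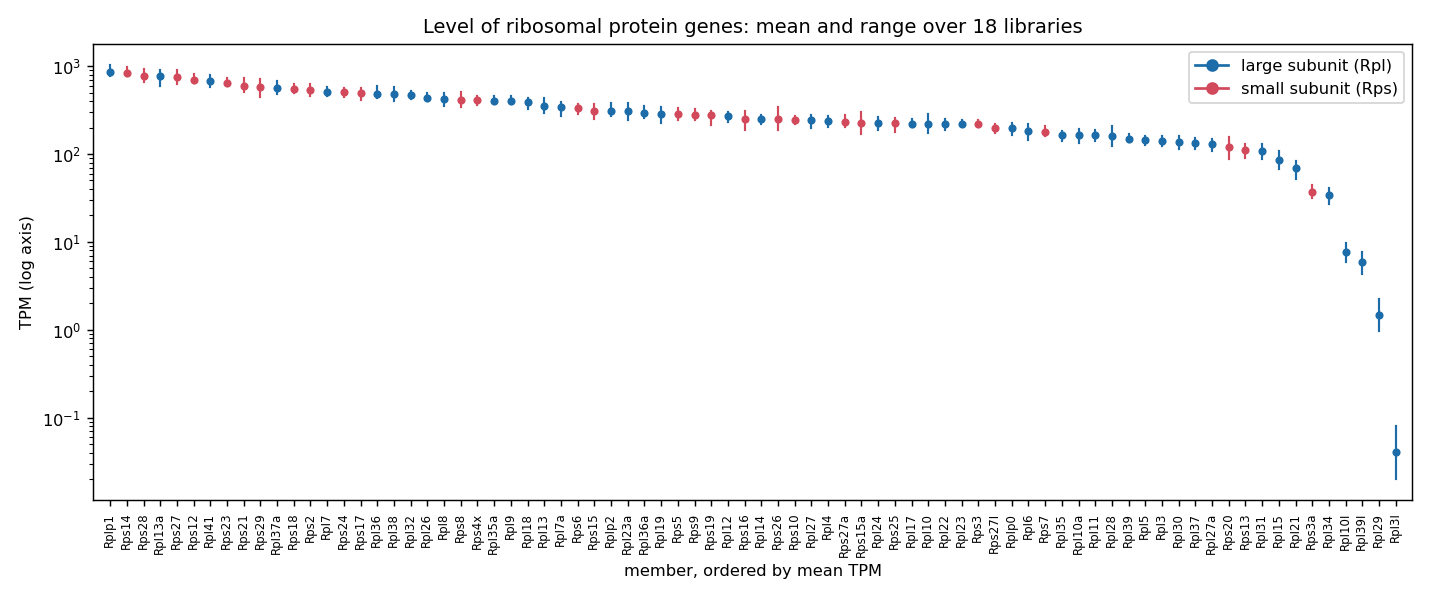
Level of 78 of the 80 ribosomal protein genes in TPM on a log axis, ordered by the mean; points are means and bars the lowest to highest of 18 libraries, coloured by subunit. Most members lie between 100 and 1000 TPM. Rpl34, Rpl10l, Rpl39l, Rpl29 and Rpl3l are the lowest of those below 100 TPM, with Rpl3l at 0.041 TPM.

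Among proteins with roles beyond or at the edge of the core particle, the 3 stalk genes differed in level. Rplp1 averaged 859 TPM, Rplp2 309 TPM (271 to 377) and Rplp0, which anchors the stalk, 196 TPM (165 to 226). These ranges do not overlap. Rps6, the substrate of S6 kinase, averaged 330 TPM (282 to 371), and Rps27a, made as a fusion with ubiquitin, 232 TPM (201 to 274). Rpl5 (144 TPM, 126 to 161) and Rpl11 (163 TPM, 141 to 186), which with 5S ribosomal RNA can bind Mdm2, overlapped each other. Rpl41, the smallest member, averaged 673 TPM (573 to 788), and Rpl22, an RNA-binding protein of the large subunit, 221 TPM (186 to 252). Outside the rule, Rpsa averaged 197 TPM (168 to 226), Gnb2l1 (Rack1, the scaffold on the small subunit) 248 TPM and Fau 150 TPM, all within the span of the core members.

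The duplicated copies stood below their partners to different degrees. Rps27l was at 26.6% of the TPM of Rps27 (22.0% to 30.9% over the libraries), with group means from 25.9% ± 2.4 (early G1 with auxin) to 27.3% ± 4.7 (G2 with auxin) (SD, n = 3). Rpl39l, a copy known from testis, was at 4.01% of Rpl39 (3.15% to 5.37%), and Rpl10l, the autosomal copy of X-linked Rpl10, at 3.5% (2.72% to 4.64%). Rpl3l, known from striated muscle, was at 0.029% of Rpl3, with 4 or more counts in each library and 7.56 on average, so its level is barely above none. Rpl22l1 was at 11.1% of Rpl22 (8.66% to 14.5%) and Rpl36al at 39.1% of Rpl36a (35.5% to 43.2%). For Rps27l the SDs within groups were as large as the differences between group means, so no order of the groups is read from it.

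For some members a large part of the counts lies on entries named as their pseudogenes. Whether reads are shared between such entries, and how that bears on a member's own level, was not tested. The table held 162 entries named as pseudogenes of 51 members, of which 40 were at 0 in every library. They held 3.51% of the counts of members and pseudogenes together, but more than 10% for 5 members. For Rpl34 the share was 87.4% (85.9% to 88.8% over the libraries), with 187176 counts on Rpl34-ps1 against 26959 on Rpl34. For Rpl3 it was 48.0%, for Rpl15 41.6%, for Rps13 27.3% and for Rpl30 18.7%. For Rpl10a, which recurs below, it was 8.40% (4.21% to 11.4%). The low rank of Rpl34 (34.5 TPM) holds only for the entry of that name. Rpl29, at 1.47 TPM (0.97 to 2.26), had 0.553% of such counts. Copies under other names were not summed, and the levels of Rpl29 (119.9 counts per library on average), Rps3a (36.9 TPM) and Rpl21 (68.5 TPM) are given as uncertain for that reason.

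**Figure D2:**
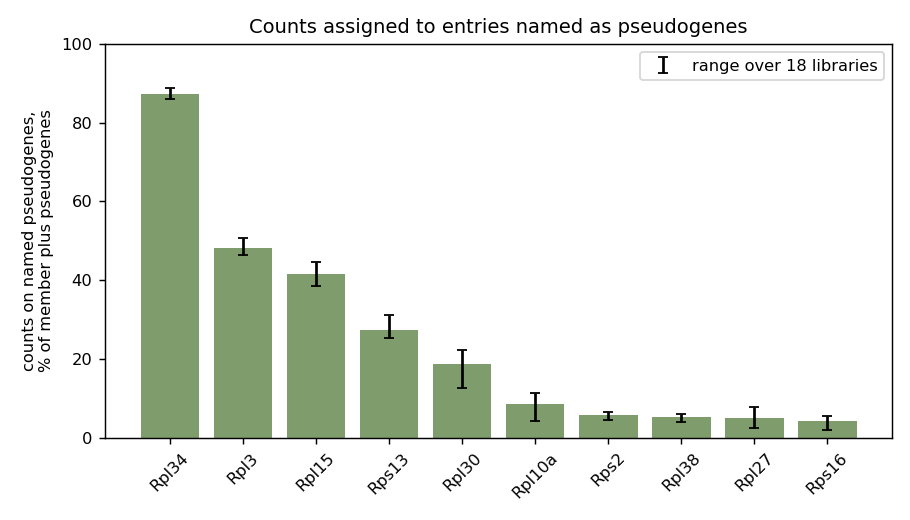
Share of counts assigned to entries named as pseudogenes, as a percentage of the counts of a member plus its named pseudogenes, for the 10 members with the highest share; bars are the share over all 18 libraries and whiskers the lowest and highest library. Rpl34 stands at 87.4%, Rpl3 at 48.0% and Rpl15 at 41.6%, and the other 7 are below 30%.

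The make-up of the family hardly differed between libraries. The 80 levels had a Spearman rank correlation of 0.973 to 0.999 over the 153 pairs of libraries, which is across genes and describes their shared order only. Each member's share of the family's TPM had a median coefficient of variation of 5.54%, and 70 of 80 members were under 10%. The highest were Rpl3l (44.5%), Rpl29 (22.1%), Rps26 (17.1%), Rpl39l (16.8%) and Rpl28 (15.2%), of which Rpl3l, Rpl29 and Rpl39l have few counts.

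The summed CPM of the family varied between libraries of 1 group as well as between groups. In early G1 it was 57786, 52338 and 46719 in the untreated libraries 1, 2 and 3, and 60217, 52568 and 59250 in the auxin libraries. The untreated late G1 libraries stood at 64529, 54029 and 51976, and those treated with auxin at 69851, 58986 and 61852. For G2 the values were 64408, 58110 and 51920 untreated and 65118, 55372 and 65499 treated. Library 1 was the highest in 5 of 6 groups, library 3 was the lowest in each untreated group, and library 2 was the lowest in each auxin group. Group means were 52281 ± 5534, 56845 ± 6734 and 58146 ± 6244 without auxin in early G1, late G1 and G2, and 57345 ± 4165, 63563 ± 5631 and 61997 ± 5740 with it (SD, n = 3), so every pair of groups compared overlaps. These are shares of a bulk RNA sample, in which fewer cells of a kind and less RNA per cell cannot be told apart.

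Summed TPM gave another picture for auxin. Means were 24468 ± 1757, 25246 ± 1097 and 26726 ± 2331 without auxin and 23287 ± 1706, 24569 ± 1897 and 25002 ± 1243 with it. The mean with auxin was thus higher by 9.69%, 11.8% and 6.62% in early G1, late G1 and G2 on the CPM scale, and differed by -4.82%, -2.68% and -6.45% on the TPM scale. Rescaling the TPM by TMM factors gave 10.3%, 11.9% and 6.18%. Between phases both scales had early G1 lowest, with G2 higher than early G1 in 3 of 3 libraries of the same number, with and without auxin, on either scale.

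**Figure D3:**
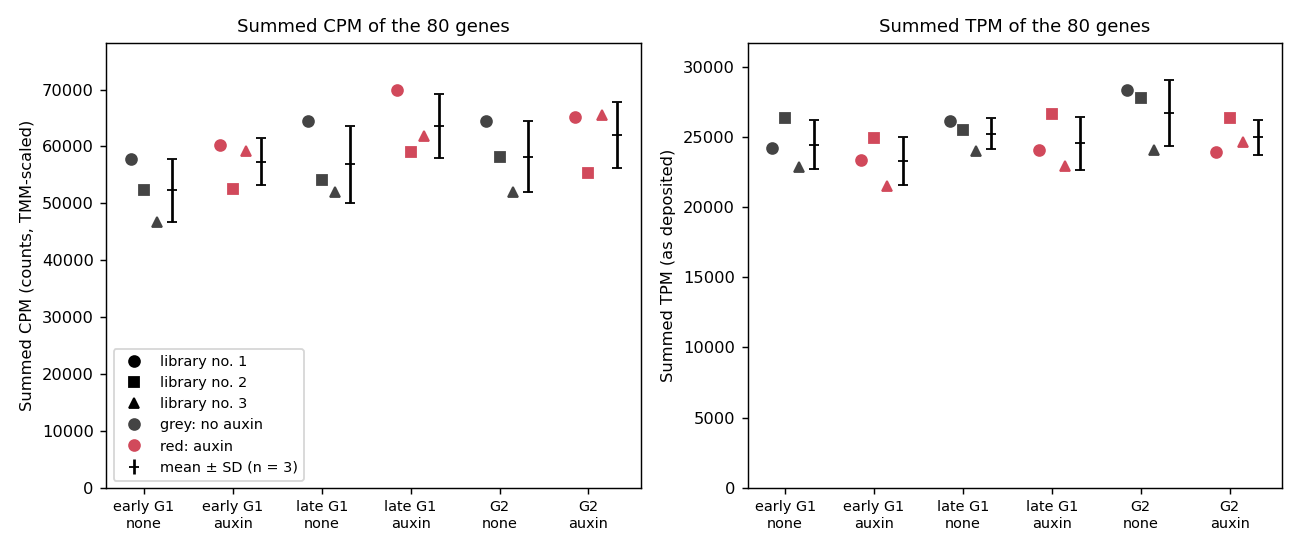
Sum over the 80 ribosomal protein genes in each library, as TMM-scaled CPM (left) and as deposited TPM (right), by phase and auxin; symbols give the library number, red is auxin, and the bars are the mean and SD of 3 libraries. Early G1 without auxin has the lowest mean CPM, 52281. Within each phase the auxin mean lies above the untreated mean on the left and below it on the right, while the libraries overlap.

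Auxin, which removes Sox2 protein in such a line, was compared with no auxin in each phase by edgeR's quasi-likelihood test with Benjamini-Hochberg adjustment over 16011 genes. No ribosomal protein gene passed an adjusted p of 0.05 in early G1 (0 of 80, where 0.106% of all genes were called), late G1 (0 of 80, 1.02%), G2 (0 of 80, 0.668%) or the average over phases (0 of 80, 5.68%). DESeq2 called 0 in each of these (0.312%, 1.99%, 1.39% and 8.63% of all genes), and limma on log2(TPM + 1) called 0 (0.0125%, 0.0562%, 0.0687% and 4.67%). At an unadjusted p under 0.05 limma gave 1, 0, 1 and 5 members, all lower with auxin, where 8.19%, 9.52%, 6.72% and 34.2% of all genes passed in either direction. At an unadjusted p under 0.05 edgeR gave 0, 0 and 0 members by phase and 17 in the average, all higher with auxin. Of all genes 2.45%, 4.58%, 3.77% and 10.7% were higher at that p. With the library number as a block edgeR called 0 members in early G1 (1.59% of all genes), 1 in late G1 and 0 in G2 (3.51%). In the average the block gave 48 of 80, all higher, where 24.6% of all genes were called and 12.9% called higher. Of the 9 same-numbered pairs behind that average 8 deviated together at a correlation over 0.1, and the pair numbered 2 in G2 did so at 0.053.

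In the fit without the block the log2 differences lay mostly on one side on the count scale. Of 80 members, 77 were positive in early G1 with a median of 0.13, 79 in late G1 with a median of 0.16, 76 in G2 with a median of 0.08, and in the average 78 with a median of 0.13 (9.25% higher), against medians of 0.009, 0.004, 0.007 and 0.006 over all genes tested. Large and small subunit genes had medians of 0.12 and 0.13 in the average. On the deposited TPM the sign was the other way, with medians of -0.07, -0.05, -0.10 and -0.07 on the log2(TPM + 1) scale and 10, 17, 2 and 5 of 80 positive. The median over all genes was then -0.08, -0.08, -0.07 and -0.08, close to those of the family. With a pseudocount of 0.1 the all-gene medians were -0.17, -0.16, -0.15 and -0.16, and those of the family -0.07, -0.05, -0.10 and -0.07. The direction of the auxin difference therefore depends on the scaling.

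Single libraries weighed on these medians. Without the 3 untreated libraries numbered 3, where the family sum was lowest and Fn1 highest, the medians were 0.06, 0.10, 0.007 and 0.05. Of these libraries, leaving out only that of late G1 gave 0.10 in late G1, against 0.16 with it. Leaving out the untreated library 1 gave 0.22, 0.27 and 0.17 in the 3 phases, and leaving out library 2 of the auxin group gave 0.20 in early G1 and 0.16 in G2. Without library 1 of the auxin group the median was 0.08 in late G1 and 0.05 in G2. The part of Fn1-expressing cells or of these libraries in the difference was not tested.

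Members among those with the smallest p are described next, with their CPM in libraries 1, 2 and 3. Rpl34 in early G1 was at 45.2, 42.3 and 32.9 CPM without and 46.3, 45.01 and 52.7 CPM with auxin. The groups overlap, and the log2 difference was 0.26 ± 0.13 (SE; edgeR adjusted p = 0.867). Rps10 differed by 0.20 ± 0.11, with the same adjusted p of 0.867 in edgeR. On the other side stood Rpl29 (-0.12 ± 0.23), Rps29 (-0.07 ± 0.15) and Rpl23a (-0.016 ± 0.087), all smaller than their errors.

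In late G1, Rpl10a, whose protein forms the flexible L1 stalk beside the exit site, was at 535, 524 and 501 CPM without and 566, 584 and 562 CPM with auxin. The groups did not overlap in CPM, though they did in TPM, and the difference was 0.13 ± 0.07 (edgeR adjusted p = 0.531). Rps3a differed by 0.21 ± 0.10 (edgeR adjusted p = 0.498), and Rpl29 (-0.16 ± 0.23) was the single member with a negative value.

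After Rpl3l, which has few counts, Rpl39l had the largest difference in late G1, 0.44 ± 0.26 (edgeR adjusted p = 0.601). It was at 18.4, 11.8 and 12.6 CPM without and 25.3, 14.4 and 18.3 CPM with auxin. Each library with auxin exceeded the untreated library of the same number, while the groups overlapped. With the library number as a block Rpl39l passed in late G1 at 0.43 (edgeR adjusted p = 0.0118), the 1 member that did, where 5.96% of all genes were called (0 members and 1.59% in early G1). Rpl39l is named here after its values were seen.

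In G2, Rps4x, the X-linked small subunit protein, was at 1613, 1439 and 1299 CPM without and 1803, 1390 and 1795 CPM with auxin, with library 2 going the other way. The difference was 0.20 ± 0.13 (edgeR adjusted p = 0.809). Rpl5 (0.17 ± 0.14) and Rpl21 (0.15 ± 0.12) were next, and Rpl29 (-0.21 ± 0.23), Rps29 (-0.07 ± 0.15) and Rpl10a (-0.003 ± 0.070) were negative. Averaged over phases, Rpl34 (0.20 ± 0.07), Rps4x (0.21 ± 0.08) and Rpl17 (0.18 ± 0.07) had edgeR adjusted p-values of 0.124, 0.126 and 0.134, and Rpl29 (-0.17 ± 0.13) and Rps29 (-0.015 ± 0.088) were the 2 negative members. Rpl34-ps1, which has far more counts than Rpl34, differed by 0.12 ± 0.08 in the average (edgeR adjusted p = 0.354) and by 0.12 ± 0.13 in early G1. Rpl29 was at 4.18, 3.96 and 2.89 CPM in untreated early G1 and at 2.98, 4.11 and 3.03 CPM with auxin, so the groups overlap.

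Groups that do not overlap in CPM were few among the members. With auxin 2 of 80 were higher without overlap in early G1 (Rpl10a and Rps16; 5.25% of all genes), 6 in late G1 (among them Rpl10a, Rpl4 and Rps2; 6.81%) and 0 in G2 (5.47%), and 0 were lower in any phase (6.07%, 6.88% and 5.5%). In TPM 0 were higher (0.543%, 1.16% and 1.06%), while 3 were lower in early G1 (Rpl13a, Rpl23 and Rps19; 8.07%), 1 in late G1 (Rplp2; 8.66%) and 2 in G2 (Rplp2 and Rps19; 8.51%). These shares are near or below the background.

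**Figure D4:**
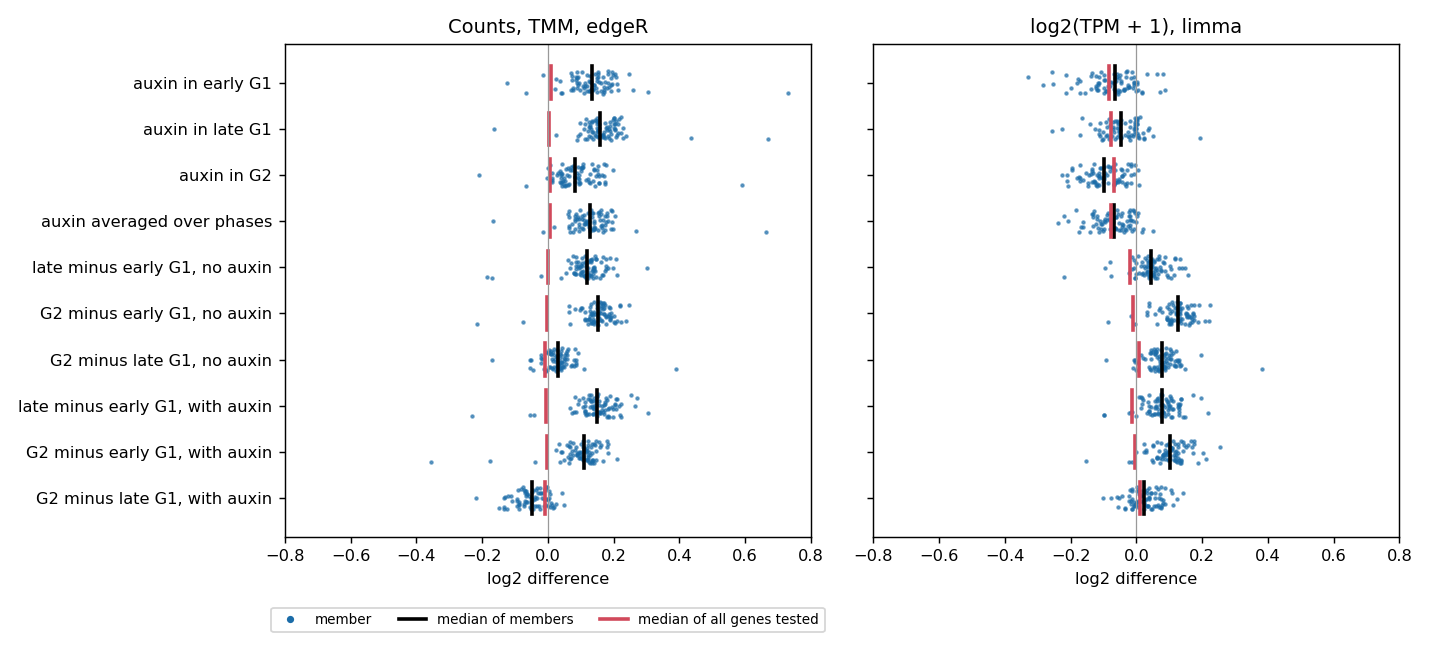
Log2 difference of each of the 80 members (dots) in 10 comparisons, on TMM-scaled counts with edgeR (left) and on log2(TPM + 1) with limma (right); black bars are the medians of the members and red bars those of all 16011 genes tested. For auxin the members lie right of zero on counts (median 0.13 in the average) and left of it on TPM (-0.07), and for late G1 or G2 minus early G1 most lie right of zero on both.

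Phases were then compared without auxin, which asks how these messages differ along the cell cycle. Again no member passed: 0 of 80 between late and early G1 (7.02% of all genes called by edgeR), between G2 and early G1 (3.6%) and between G2 and late G1 (5.04%). DESeq2 called 0, 1 and 0 (9.52%, 5.87% and 7.15% of all genes), the 1 being Rpl10a. Unadjusted p-values under 0.05 in edgeR numbered 0, 2 and 0, both of the 2 higher in G2 (9.72%, 7.71% and 8.94% of all genes higher), and limma on log2(TPM + 1) called 0 (1.56%, 0.543% and 1.29%). Its unadjusted p was under 0.05 for 0, 2 and 1 members, where 12.8%, 10.5% and 9.48% of all genes passed. Medians were 0.12 (77 of 80 positive) for late minus early G1, 0.15 (78) for G2 minus early G1 and 0.03 (67) for G2 minus late G1, against -0.001, -0.004 and -0.009 over all genes. On TPM they were 0.04 (67 positive), 0.13 (77) and 0.08 (74), so both scales had the family lowest in early G1.

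The median for late minus early G1 without auxin rested on few libraries. It was 0.02 without late G1 library 1, 0.05 without early G1 library 3, 0.20 without early G1 library 1 and 0.18 without late G1 library 3, and 0.01 when counts were scaled to totals without the 3 most abundant entries. For G2 minus early G1 the same choices, with the G2 libraries in place of the late G1 ones, gave 0.08, 0.08, 0.23, 0.25 and 0.06. G2 minus late G1 ranged from -0.04 (without G2 library 1) to 0.14 (without late G1 library 1), and was also negative without late G1 library 2 (-0.003) or 3 (-0.02).

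Rpl10a had the smallest p between G2 and early G1. It was at 483, 489 and 444 CPM in untreated early G1 and 540, 559 and 508 CPM in G2, with no overlap, and differed by 0.18 ± 0.07 (edgeR adjusted p = 0.176, and 0.024 with the library number as a block). In untreated late G1 it was at 535, 524 and 501 CPM, also above every early G1 library, with a difference of 0.14 ± 0.07 (edgeR adjusted p = 0.261). On the CPM scale Rpl10a was thus lowest in early G1 and did not differ beyond its spread between late G1 and G2. On the TPM scale these untreated groups overlapped. Early G1 libraries were at 147, 178 and 159 TPM, those of late G1 at 157, 180 and 168, and those of G2 at 172, 194 and 172. The early G1 mean was again the lowest, at 161 TPM against 168 (late G1) and 180 (G2).

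Rps2, which lines the entry of the messenger RNA channel, differed by 0.19 ± 0.09 between G2 and early G1 (edgeR adjusted p = 0.277, and 0.048 with the block), and Rpl4, which reaches into the exit tunnel, by 0.15 ± 0.08 between late and early G1. With the block edgeR called 1 member between late and early G1 (21.8% of all genes) and 3 between G2 and early G1 (14.7%).

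Members with negative values in these comparisons were the low copies. Rpl39l differed by -0.19 ± 0.26, Rpl3l by -0.17 ± 0.56 and Rpl10l by -0.02 ± 0.22 between late and early G1, and Rpl3l by -0.22 ± 0.57 and Rpl10l by -0.08 ± 0.22 between G2 and early G1. All are smaller than their errors. Between G2 and late G1, Rpl39l was at 23.1, 17.8 and 15.3 CPM against 18.4, 11.8 and 12.6 CPM. That is 0.39 ± 0.26 (edgeR adjusted p = 0.498, and 0.00819 with the block, the 1 member called where 15.9% of all genes were). Rps2 (0.08 ± 0.09) and Rps19 (0.08 ± 0.09), a gene mutated in Diamond-Blackfan anaemia, followed, and Rpl29 (-0.17 ± 0.23), Rpl21 (-0.05 ± 0.12) and Rps27l (-0.05 ± 0.15) were on the other side.

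**Figure D5:**
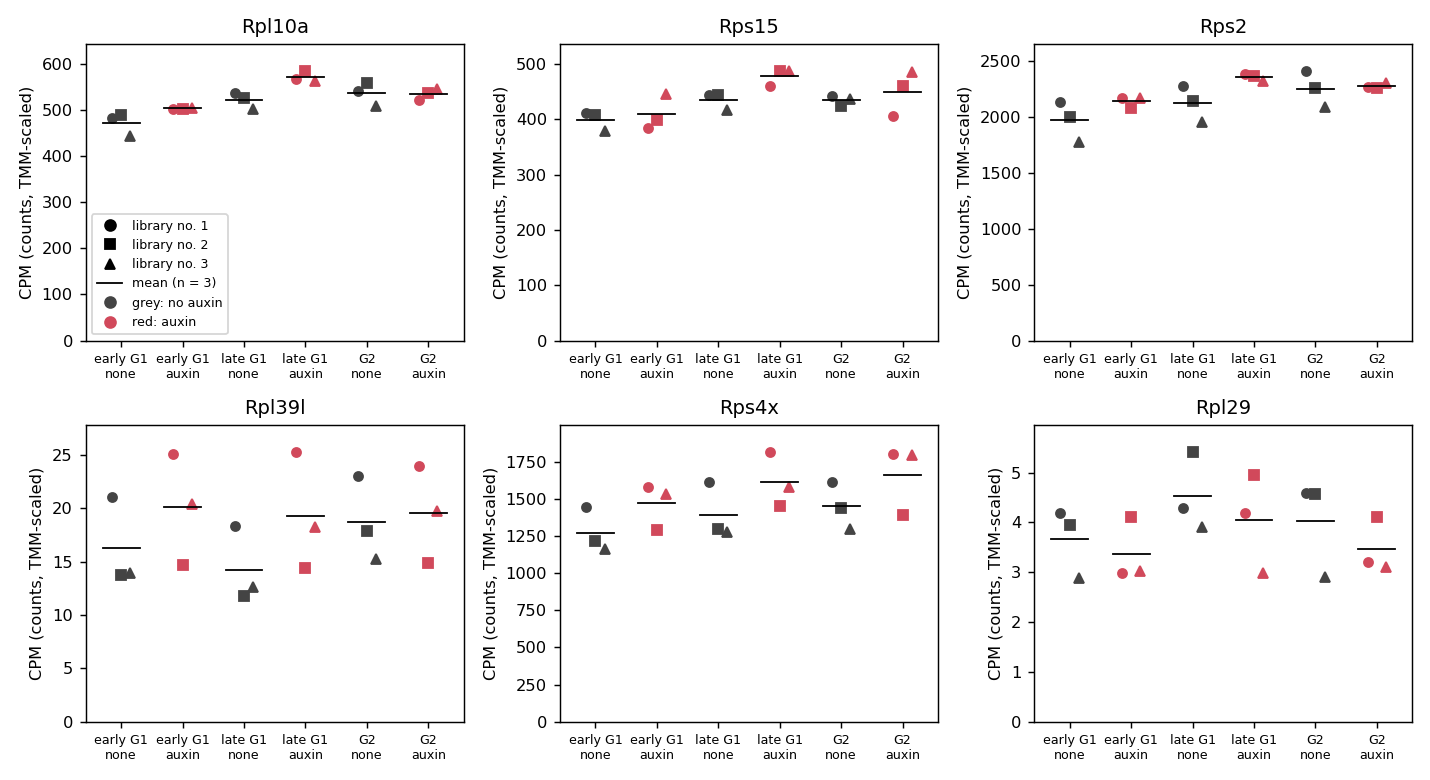
TMM-scaled CPM of Rpl10a, Rps15, Rps2, Rpl39l, Rps4x and Rpl29 in each of the 18 libraries, by phase and auxin; symbols give the library number, red is auxin, and lines are the means of 3 libraries. Rpl10a is lowest in early G1 without auxin, at 444 to 489 CPM, and for Rpl39l library 1 is the highest of its group in all 6 groups.

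Under auxin the same 3 comparisons of phases gave 0 of 80 members called by edgeR (7.42% of all genes for late minus early G1, 3.88% for G2 minus early G1 and 5.91% for G2 minus late G1). DESeq2 called 2, Rpl10a and Rps15, for late minus early G1 (10.2% of all genes) and 0 in the other comparisons (5.86% and 8.11%), and limma on log2(TPM + 1) called 0 (1.01%, 0.4% and 1.16%). Its unadjusted p was under 0.05 for 2, 0 and 0 members, where 10.8%, 7.48% and 8.2% of all genes passed. In edgeR unadjusted p-values under 0.05 numbered 6, 0 and 0, the 6 all higher in late G1 (9.24%, 7.87% and 10.3% of all genes higher). The medians were 0.15 (77 of 80 positive), 0.11 (77) and -0.05 (12), against -0.007, -0.004 and -0.009 over all genes, and 0.08, 0.10 and 0.02 on log2(TPM + 1), so the last changes sign with the scale. It was also positive, at 0.03, without G2 library 2 or late G1 library 1.

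Rps15, a small subunit protein near the decoding site, was at 385, 399 and 447 CPM in early G1 and 461, 487 and 488 CPM in late G1 with auxin. Late G1 was higher in each library, by 0.22 ± 0.08 (edgeR adjusted p = 0.111, and 0.0192 with the block), and G2 was at 405, 460 and 486 CPM, which overlaps both. Rpl10a was at 502, 502 and 504 CPM in early and 566, 584 and 562 CPM in late G1, without overlap in CPM but with overlap in TPM. Its difference of 0.18 ± 0.07 missed the threshold in edgeR (adjusted p = 0.126) and passed with the block (edgeR adjusted p = 0.0166), and it was 0.22 with its pseudogenes summed in. With the block edgeR called 10 members higher in late G1, where 22.6% of all genes were called, among them Rps15, Rps25, Rpl6, Rpl10, Rpl10a and Rpl38. Without early G1 library 2 the median was 0.09, and without late G1 library 1 it was 0.08.

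Rpl3l (-0.23 ± 0.50), Rpl39l (-0.05 ± 0.26) and Rpl10l (-0.04 ± 0.22) were the 3 negative members there. With the block 0 members were called for G2 minus early G1 (15.2% of all genes) or G2 minus late G1 (17.7%) with auxin. Between G2 and early G1 with auxin Rps15 (0.13 ± 0.08, edgeR adjusted p = 0.435) and Rpl23a (0.14 ± 0.09, adjusted p = 0.443), which sits at the tunnel exit, were among the positive members with the smallest p. Rpl10l (-0.18 ± 0.22), Rpl3l (-0.36 ± 0.49) and Rpl39l (-0.04 ± 0.26) were again the negative ones. Without early G1 library 2 the median was 0.06, and without G2 library 2 it was 0.19. Between G2 and late G1 with auxin Rpl10a (-0.10 ± 0.07, edgeR adjusted p = 0.529), Rps15 (-0.09 ± 0.08) and Rpl37 (-0.13 ± 0.13) led on the negative side and Rpl5 (0.05 ± 0.14), Rps4x (0.04 ± 0.13) and Rps23 (0.02 ± 0.14) on the positive.

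Between phases, the count of members without overlap passed the background in some comparisons only. Without auxin 4 of 80 members were higher in late than in early G1 (10.7% of all genes), 6 in G2 than in early G1 (10.2%) and 0 in G2 than in late G1 (10.9%). With auxin 24 were higher in late than in early G1 (12.9%), 7 in G2 than in early G1 (10.7%), and 3 were lower in G2 than in late G1 (11.2%), Rpl10a among them. In TPM 2, 3 and 1 were higher without auxin (3.64%, 4.8% and 9.18%) and 6, 16 and 2 with it (3.11%, 3.96% and 7.16%). Members lower without overlap numbered 0 in every other case, where the share of all genes was 13.2%, 11.8% and 9.77% in CPM and 11.1%, 8.69% and 4.84% in TPM without auxin, 15% and 12.3% in CPM and 9.1%, 5.8% and 3% in TPM with it. None was higher in G2 than in late G1 with auxin in CPM (12.1%).

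Whether the auxin difference itself changed between phases was tested as an interaction. None of the 80 members passed for late against early G1, G2 against early G1 or G2 against late G1 (0% of all genes in each with edgeR), and at an unadjusted p under 0.05 there were 0 in each (0.687%, 0.725% and 0.693% of all genes higher). DESeq2 called 0 members too (0.00625%, 0% and 0% of all genes), as did edgeR with the block (0.00625%, 0% and 0%). The medians were 0.02, -0.05 and -0.07.

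The precision sets what could be seen, and the values here hold for the fit without the library number as a block. The SE of a member's log2 difference had a median of 0.127 in a comparison of 2 groups and 0.073 in the auxin average. A change of 1.5-fold (0.58 in log2) lay outside the 95% interval of 75, 76 and 77 of 80 members for auxin in early G1, late G1 and G2 and of 79 in the average. The exceptions in late G1 were Rpl3l, Rpl39l, Rpl29 and Rpl10l. Between phases without auxin 76 or 77 of 80 excluded it.

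Scaling each library to the family's own sum asks whether a member changed relative to the rest. This scaling was added after the data were seen. It called 0 of 80 members in all 13 comparisons with edgeR. Of all genes 0.0187%, 0.312%, 0.0687% and 3.09% were called for auxin in the 3 phases and the average, 4.23%, 1.63% and 2.18% between phases without auxin, 5.9%, 1.33% and 2.45% with it and 0% in the interactions. Members at an unadjusted p under 0.05 included Rpl12, which with the stalk proteins forms the factor-binding region, for auxin in late G1 (-0.14 ± 0.06) and in the average (-0.11 ± 0.03, adjusted p = 0.0774), and Rps4x in the average (0.07 ± 0.03, adjusted p = 0.165). Rpl12 is named here after its values were seen.

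Other genes of protein synthesis and housekeeping had medians of the same sign on each scale. In the auxin average 22 translation factors and other TOP messenger RNAs had a median of 0.13 (0 called), 76 mitochondrial ribosomal proteins 0.10 (0 called), 82 nuclear subunits of oxidative phosphorylation 0.11 (0 called) and 38 proteasome subunits 0.13 (1 up, Psmb9, an immunoproteasome subunit, by 2.45 ± 0.53). On log2(TPM + 1) these medians were -0.09, -0.10, -0.08 and -0.06. The 7 related genes outside the rule had a median of 0.13 (0 called), with Rpsa at 0.13 ± 0.06, Gnb2l1 at 0.14 ± 0.06 and Rpl22l1 at 0.19 ± 0.09. The 8 tested snoRNA host genes had a median of -0.04 (0 called).

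Between phases without auxin, the TOP messenger RNAs had medians of 0.19 for late minus early G1 and 0.16 for G2 minus early G1, with 22 of 22 positive in both and 0 called. Proteasome subunits had 0.18 and 0.12 and mitochondrial ribosomal proteins 0.14 and 0.12, with 0 called in each. Among all genes edgeR called 7.02% for late minus early G1 and 3.6% for G2 minus early G1. Snhg12, a snoRNA host, rose in late G1 by 0.29 ± 0.09 (edgeR adjusted p = 0.0471), and Snhg4 fell in G2, by 0.50 ± 0.12 against early G1 (adjusted p = 0.0245). The ribosomal protein genes had 0.12 and 0.15 in the same comparisons.

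Single genes that act on ribosomal proteins or on TOP messages passed the test. In the auxin average edgeR called 5.68% of all genes, and 7.02% and 7.42% for late minus early G1 without and with auxin. It called 3.6% and 3.88% for G2 minus early G1 without and with auxin, and 5.04% for G2 minus late G1 without it. The calls below are single genes of short lists, and no result about a list is read from them. Of 18 tested mTORC1 and TOP regulators, Rptor, the defining subunit of mTORC1, fell in the auxin average by 0.26 ± 0.07 (edgeR adjusted p = 0.0365), and the list's median was -0.05. Rps6kb1, the S6 kinase, was higher in G2 than in early G1 with auxin by 0.29 ± 0.08 (adjusted p = 0.0368). Among 14 ribosomal protein chaperones and Mdm2 checkpoint genes, Mdm2 rose (0.25 ± 0.05, adjusted p = 0.00271) and Mdm4 fell (-0.28 ± 0.05, adjusted p = 0.00274) in the auxin average. On log2(TPM + 1) limma called 0 of these 14 higher and 1 lower. Mdm2, the p53 ligase that free Rpl5 and Rpl11 bind, was also higher in late than in early G1 without auxin (0.33 ± 0.08) and with it (0.45 ± 0.08). Grwd1, a chaperone of Rpl3, rose in G2 against early G1 without auxin (0.33 ± 0.09, adjusted p = 0.0451), and Pdcd2, which assists Rps2, fell in G2 against late G1 (-0.34 ± 0.09, adjusted p = 0.0296).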

How the data were processed

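RNA-seq of 18 libraries was used. Per the submitters' processing notes, STAR, RSEM and the mm9 assembly were used, with no versions or roles. The authors deposited expected counts per gene (an estimate, from the named RSEM) as whole numbers, and TPM to 2 decimals. Gene symbols came with the files, and all 80 member IDs matched a symbol table. Counts of 16011 genes kept by filterByExpr were TMM-scaled and fitted with edgeR 4.0.16 (R 4.3.3, robust quasi-likelihood F test, group means of all 18 libraries, 12 residual degrees of freedom, biological coefficient of variation 0.142), and a call needed an adjusted p (Benjamini-Hochberg) under 0.05. SE is the log2 difference divided by the square root of F. The test was also run on simulated counts drawn independently for each library, which do not hold the shared deviations of same-numbered libraries. No result here rests on that run. DESeq2 1.42.0, limma 3.58.1 on log2(TPM + 1) and log2(TPM + 0.1), TPM rescaled by TMM, other filters and scalings, members summed with named pseudogenes, a library-number block and leaving out libraries were alternatives.

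The members, lists and tests were chosen with earlier results of these data known. Named are, per comparison, the 3 members with the smallest p in each direction, the 3 highest and lowest in TPM, copies with partners, landmark proteins and up to 4 called genes per other list; the results of some of these genes are not reported here. Same-numbered libraries deviated together, at correlations over 0.1 for every pair in auxin in early G1 (0.264 to 0.292), auxin in late G1 (0.223 to 0.291) and the 6 phase comparisons (lowest 0.192), but not for auxin in G2 (lowest 0.053). The labels do not state what a number shares. Promoter windows come from RefSeq (GRCm38.p6).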

Additional observations from a re-analysis of the deposited data

How the results depend on the processing

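With the library number as a replicate block, edgeR called 48 members, all higher, in the auxin average, where 24.6% of all genes were called (12.9% higher), and 0 in G2 (3.51%). In G2 the pairs numbered 1 and 3 deviated together (correlations of 0.220 and 0.197) and the pair numbered 2 less so (0.053), so not every pair behind these 2 results was over 0.1. The block also gave 1 member for auxin in late G1, 1, 3 and 1 between untreated phases and 10 between late and early G1 with auxin, and changed no other count. DESeq2 gave 1 for untreated G2 against early G1 and 2 for late against early G1 with auxin. In the other settings, each library left out included, 0 members were called in every comparison.

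On log2(TPM + 1) the auxin medians turned to -0.0655 (early G1), -0.0469 (late G1), -0.0991 (G2) and -0.0667 (average), and that of G2 minus late G1 with auxin to 0.0245. On log2(TPM + 0.1) they were -0.0657, -0.0471, -0.0994, -0.067 and 0.0246. Without 1 library the auxin medians ran from 0.0576 to 0.219, 0.0791 to 0.2703, 0.0064 to 0.1718 and 0.0966 to 0.1669. G2 minus late G1 ran from -0.0411 to 0.139 untreated and -0.0945 to 0.0307 with auxin. Scaled by total counts without TMM, the auxin medians were 0.0726, 0.0889, 0.0205 and 0.0638.

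Members that turned sign for auxin on TPM included, with values for pseudocounts 0.1 and 1 of -0.0686 and -0.0681 (Rpl10a, late G1), -0.0636 and -0.0633 (Rpl5, G2), -0.0442 and -0.0436 (Rpl21, G2) and -0.0214 and -0.0213 (Rpl17, average). On rescaled TPM Rps29 turned to 0.0027 in early G1 and 0.0274 in the average, Rpl23a to 0.0019 in early G1, Rpl10a to 0.0007 in G2 and Rpl3l to 0.0018 for late minus early G1 with auxin. Rpl10a in G2 was 0.0148 with pseudogenes summed and 0.0054 without a count filter.

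With 1 library left out, auxin ranges that crossed zero were -0.2215 to 0.0159 (Rps29, early G1), -0.071 to 0.0402 (Rpl23a, early G1), -0.3287 to 0.0127 (Rpl29, late G1), -0.0375 to 0.0336 (Rpl10a, G2), -0.1919 to 0.0055 (Rps29, G2) and -0.0653 to 0.0262 (Rps29, average). Late minus early G1 gave -0.4162 to 0.0455 (Rpl39l), -0.5245 to 0.0997 (Rpl3l) and -0.2307 to 0.2384 (Rpl10l) untreated, and -0.2961 to 0.1408 (Rpl39l) and -0.1691 to 0.1004 (Rpl10l) with auxin. G2 minus early G1 gave -0.2475 to 0.1857 (Rpl10l) and -0.5737 to 0.0025 (Rpl3l) untreated, and -0.2218 to 0.1567 (Rpl39l) and -1.0044 to 0.0148 (Rpl3l) with auxin. G2 minus late G1 gave -0.1424 to 0.0639 (Rpl21), -0.2716 to 0.0153 (Rpl29) and -0.1348 to 0.0757 (Rps27l) untreated, and -0.0494 to 0.1861 (Rpl5), -0.0492 to 0.1577 (Rps23) and -0.0296 to 0.1583 (Rps4x) with auxin. The cause of these turns was not tested. Low counts limit Rpl3l and Rpl29.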
